A study of Homo sapiens with 3 samples.

Results

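The 36 genes described here encode enzymes and subunits that write, read or erase the histone marks linked to the PAF1 complex, and their promoters were read in chromatin immunoprecipitation followed by sequencing (ChIP-seq). They were chosen by symbol from a table of 60123 promoter windows. Each of the 36 symbols matched 1 window, out of 57997 symbols in all, of which 19046 were protein-coding by RefSeq. All libraries came from SW1990, an established human pancreatic ductal adenocarcinoma cell line, in a population labelled SP. One library was precipitated with an antibody against PAF1, which the sample title calls PD2, and another with an antibody against PHF5A, a small subunit of the SF3b splicing complex. Both came from cells fixed with formaldehyde (0.4%) and the protein crosslinker EGS (1.5 mM). The input library was not analysed here, so signal was not separated from background and is not by itself a measure of binding. Each antibody had 1 library of 1 cell line, so no difference below has a replicate check, no p-value can be given, and values after ± are counting standard errors (SE) of a single library.

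The PAF1 complex travels with RNA polymerase II during elongation. It is known for bringing the ubiquitin ligases RNF20 and RNF40, with the conjugating enzymes UBE2A or UBE2B, to histone H2B. Ubiquitinated H2B in turn stimulates methylation of H3K4 by the COMPASS family of complexes and of H3K79 by DOT1L, while SETD2 methylates H3K36 behind the polymerase. The question read from the table was how much PAF1 and PHF5A signal lay over the promoters of these genes themselves.

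The deposited value is the mean signal of a window from 2000 bp before to 500 bp after a transcription start in hg38, in units that the sources used here do not define. Signal over a promoter is not a measure of the gene's expression. The bins of all windows summed to 4810548 with PAF1 and 4891421 with PHF5A. The median member window held a bin sum of 44.5 with PAF1 and 60.5 with PHF5A, in which a fragment can count in several bins. The largest signal that a listed 0 would allow, from counting alone, is called the floor. It was 0.721 to 0.763 for members with PAF1 and 0.725 to 0.768 with PHF5A. Of the 36 members 1 lay below it in a library, KMT2C with PAF1.

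The bases just before the start are printed for the highest and the lowest members whose promoter stood in the RefSeq table of GRCh38.p14, so that their composition can be set beside their signal. KDM5A (chr12:389455-389570, minus strand) and UBE2A (chrX:119574313-119574537, plus strand) had high signal, and KMT2B (chr19:35717753-35718002, plus strand) and KMT2A (chr11:118436242-118436489, plus strand) low signal. Capitals mark the GC box GGGCGG or its reverse complement CCGCCC, and letters that lie after the start given in the deposited table were left out.
KDM5A: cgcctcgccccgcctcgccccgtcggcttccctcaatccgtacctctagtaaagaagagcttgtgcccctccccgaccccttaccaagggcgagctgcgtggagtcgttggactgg
UBE2A: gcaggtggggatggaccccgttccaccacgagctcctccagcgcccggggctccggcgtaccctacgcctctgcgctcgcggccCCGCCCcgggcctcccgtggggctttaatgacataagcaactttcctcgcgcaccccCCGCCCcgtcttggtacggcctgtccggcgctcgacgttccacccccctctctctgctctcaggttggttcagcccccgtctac
KMT2B: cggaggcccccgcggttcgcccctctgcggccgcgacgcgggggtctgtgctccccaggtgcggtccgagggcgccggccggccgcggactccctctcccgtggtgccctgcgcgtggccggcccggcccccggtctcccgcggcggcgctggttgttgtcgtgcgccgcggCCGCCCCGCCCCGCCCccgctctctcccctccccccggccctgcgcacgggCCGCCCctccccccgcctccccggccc
KMT2A: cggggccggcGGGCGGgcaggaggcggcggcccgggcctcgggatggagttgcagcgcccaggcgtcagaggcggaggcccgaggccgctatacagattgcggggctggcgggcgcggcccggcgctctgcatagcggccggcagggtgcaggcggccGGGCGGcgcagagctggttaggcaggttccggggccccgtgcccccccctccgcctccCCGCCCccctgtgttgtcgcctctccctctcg
The GC content of these stretches was 65.5% for KDM5A, 69.8% for UBE2A, 84.4% for KMT2B and 78.6% for KMT2A. The KMT2B stretch of 250 bases held 4 GC boxes and 40 CpG dinucleotides, the KMT2A stretch of 248 bases 3 and 31, the UBE2A stretch of 225 bases 2 and 23, and the KDM5A stretch of 116 bases 0 and 11. The stretches differ in length, and the full 250 bases before the RefSeq start of KDM5A do hold a GC box, among the letters left out.

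In signal, promoters of the 36 genes lay mostly below the typical protein-coding promoter. Their median signal was 2.52 with PAF1, against 3.64 over protein-coding symbols, and 3.38 with PHF5A, against 3.91. On a log2 scale with a pseudocount of 0.5 the members' medians were -0.45 with PAF1 and -0.19 with PHF5A relative to the protein-coding median. With PAF1, 24 of the 36 lay below that median, where 49.9% of protein-coding symbols do, and with PHF5A 22 of the 36, where 49.5% do. At or below 0.5 times the median, with the pseudocount in both terms, stood 8 members with PAF1 (22.2%, background 14.5%) and 7 with PHF5A (19.4%, background 13.1%). At 2 times the median or more stood 4 members with PAF1, against a background of 8.67%, and 1 with PHF5A, against 7.78%. Against the median of all symbols, 2 members reached that level with PAF1. The 4 were NCOA6, USP44, KDM5A and UBE2A, and the 1 was KDM5A. Signal ranged from 0.66 to 10.2 with PAF1 and from 0.89 to 11.3 with PHF5A over the members.

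**Figure D1:**
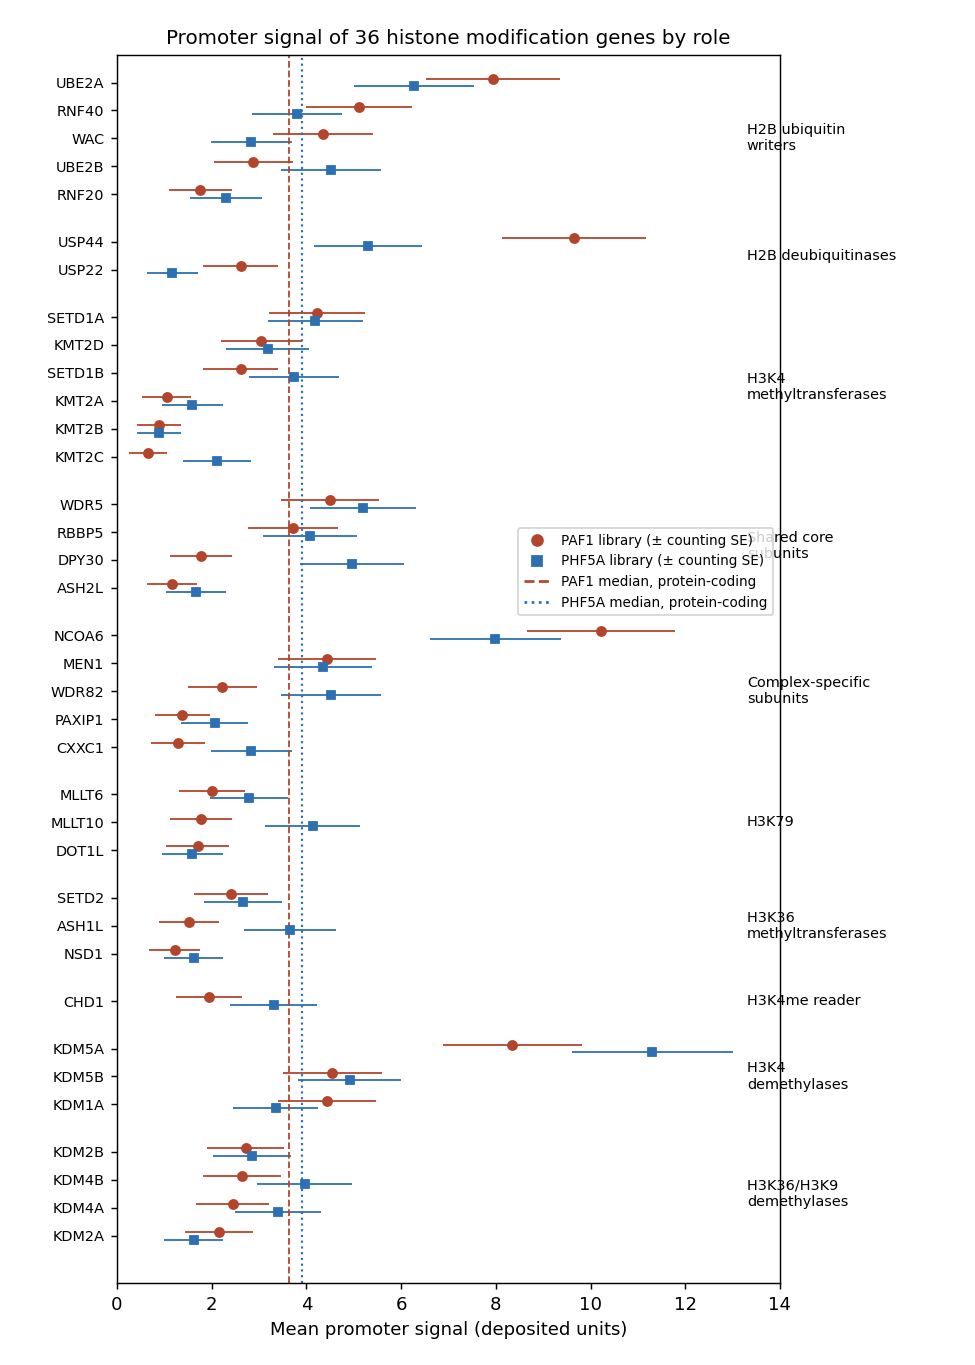
Mean promoter signal of the 36 members in the PAF1 library (circles) and the PHF5A library (squares), grouped by role, with bars of 1 counting SE and lines at the protein-coding medians of 3.64 (PAF1, dashed) and 3.91 (PHF5A, dotted). Most members lie left of the lines, while NCOA6, USP44, KDM5A and UBE2A stand to the right of them with PAF1.

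Among the writers of H2B ubiquitin, the paired subunits of the pathway differed in level by more than 2 counting SE with PAF1. With PHF5A the order was the same, but the differences lay within 2 counting SE. Whether the differences themselves changed between the libraries was not tested. UBE2A, a ubiquitin-conjugating enzyme encoded on chromosome X (window 119572538 to 119575038), had 7.94 ± 1.42 with PAF1 and 6.27 ± 1.27 with PHF5A. Its close paralog UBE2B on chromosome 5 had 2.88 ± 0.833 with PAF1 and 4.52 ± 1.05 with PHF5A. The UBE2A level was thus 2.50 times that of UBE2B with PAF1, beyond 2 counting SE, and 1.35 times with PHF5A, within them. RNF20, the catalytic ligase subunit on chromosome 9 (window 101531851 to 101534351), had 1.76 ± 0.670 with PAF1 and 2.30 ± 0.769 with PHF5A. RNF40, its partner on chromosome 16, had 5.11 ± 1.11 with PAF1 and 3.80 ± 0.959 with PHF5A. The log2 difference of RNF20 from RNF40 was -1.31 (counting SE 0.51) with PAF1 and -0.62 (counting SE 0.51) with PHF5A, the second within 2 counting SE. WAC, an adaptor that links RNF20 and RNF40 to the polymerase, had 4.35 ± 1.05 with PAF1 and 2.84 ± 0.853 with PHF5A.

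Of the H2B deubiquitinases, USP44 stood far above USP22. USP44 (chromosome 12, window 95550990 to 95553490) had 9.66 ± 1.52 with PAF1, at percentile 96.4 of protein-coding symbols, and 5.30 ± 1.13 with PHF5A, at percentile 69.9. USP22, the deubiquitinase of the SAGA coactivator complex, had 2.61 ± 0.792 with PAF1 and 1.17 ± 0.533 with PHF5A, which places it low among protein-coding promoters in the PHF5A data, at percentile 7.72. Both genes had more PAF1 than PHF5A signal, and with only 2 genes no common direction can be read from them.

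The H3K4 methyltransferases held the lowest promoter of the 36 in each library. KMT2B (chromosome 19, window 35716019 to 35718519), the catalytic subunit of a COMPASS-like complex that binds menin, had 0.88 ± 0.462 with PAF1 and 0.89 ± 0.465 with PHF5A. KMT2A (chromosome 11, window 118434490 to 118436990), its paralog and a gene rearranged in leukaemia, had 1.05 ± 0.519 with PAF1 and 1.59 ± 0.640 with PHF5A. KMT2C (chromosome 7, window 152435505 to 152438005), a methyltransferase of enhancers, had 0.66 ± 0.400 with PAF1, under the floor of 0.721, and 2.12 ± 0.717 with PHF5A. In percentiles of protein-coding symbols, KMT2B stood at 6.66, KMT2A at 8.24 and KMT2C at 5.08 with PAF1, and KMT2B at 5.65, KMT2A at 11.9 and KMT2C at 18.7 with PHF5A. KMT2D, the paralog of KMT2C, had 3.05 ± 0.857 with PAF1 and 3.18 ± 0.878 with PHF5A. SETD1A and SETD1B, the enzymes of the COMPASS complexes that give most promoter H3K4 trimethylation, had 4.22 ± 1.01 and 2.61 ± 0.792 with PAF1, and 4.19 ± 1.01 and 3.74 ± 0.952 with PHF5A. Of these 6 enzymes 5 lay below the protein-coding median in each library, SETD1A being the one above it.

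The subunits that all COMPASS-type complexes share stood at unlike levels. WDR5 (chromosome 9), a WD-repeat scaffold, had 4.5 ± 1.04 with PAF1 and 5.19 ± 1.12 with PHF5A, and RBBP5, its neighbour in the core, had 3.72 ± 0.946 and 4.08 ± 0.993. ASH2L (chromosome 8), which with RBBP5 activates the enzymes, was low in both, at 1.16 ± 0.530 with PAF1 and 1.67 ± 0.637 with PHF5A. DPY30 (chromosome 2, window 32039312 to 32041812), the small subunit bound to ASH2L, had 1.77 ± 0.654 with PAF1, at percentile 17.6, and 4.97 ± 1.10 with PHF5A, at percentile 65.7.

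Of the subunits particular to one kind of complex, NCOA6 was the highest promoter of the 36 with PAF1. NCOA6 (chromosome 20, window 34825149 to 34827649), a nuclear receptor coactivator of the KMT2C and KMT2D complexes, had 10.22 ± 1.57 with PAF1 and 7.99 ± 1.39 with PHF5A. PAXIP1, of the same complexes, had 1.38 ± 0.578 with PAF1 and 2.06 ± 0.707 with PHF5A. MEN1, which encodes menin, the tumour suppressor that holds KMT2A and KMT2B to chromatin, had 4.44 ± 1.03 and 4.35 ± 1.03. CXXC1, the CpG-binding subunit of the SETD1A and SETD1B complexes, had 1.29 ± 0.574 with PAF1 and 2.84 ± 0.853 with PHF5A. WDR82, which ties these complexes to the phosphorylated polymerase, had 2.22 ± 0.731 with PAF1 and 4.52 ± 1.05 with PHF5A.

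Genes of H3K79 and H3K36 methylation lay below the protein-coding median with PAF1 throughout. DOT1L, the H3K79 methyltransferase, had 1.70 ± 0.659 with PAF1 and 1.59 ± 0.640 with PHF5A. Of its cofactors, MLLT10 had 1.77 ± 0.654 with PAF1 and 4.13 ± 1.00 with PHF5A, and MLLT6 had 2.0 ± 0.693 and 2.79 ± 0.822, in both cases within 2 counting SE of the difference. SETD2, the enzyme of H3K36 trimethylation, had 2.41 ± 0.783 with PAF1 and 2.66 ± 0.826 with PHF5A. NSD1 had 1.22 ± 0.542 and 1.62 ± 0.626, and ASH1L 1.52 ± 0.624 and 3.66 ± 0.969, both enzymes of H3K36 dimethylation. All 6 of these genes lay below the protein-coding median with PAF1, and 5 of them with PHF5A, MLLT10 being the exception. Against the median of windows within 1 Mb with PAF1, DOT1L was not low, at 1.01 times that level. The others had from 0.371 (ASH1L) to 0.793 (SETD2) times it. CHD1, a remodeller whose chromodomains read methylated H3K4, had 1.94 ± 0.703 with PAF1 and 3.31 ± 0.921 with PHF5A.

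The H3K4 demethylases were the group with the highest median in the PHF5A library, 0.29 above the protein-coding median (log2), though their median was -0.05 relative to windows within 1 Mb. KDM5A (chromosome 12, window 388954 to 391454), which removes H3K4 trimethylation, had 8.35 ± 1.46 with PAF1, above 93.3% of protein-coding symbols, and 11.3 ± 1.70 with PHF5A, above 98.1% of them. Its paralog KDM5B had 4.55 ± 1.05 with PAF1 and 4.91 ± 1.09 with PHF5A, and KDM1A, the flavin-dependent demethylase also called LSD1, had 4.44 ± 1.03 and 3.35 ± 0.901. KDM5A was 1.75 times KDM5B with PAF1 and 2.18 times with PHF5A, beyond 2 counting SE in both. The window of KDM5B and that of the noncoding gene PCAT6 on the other strand cover almost the same bases and have the same values. The demethylases KDM2A and KDM2B, which act on H3K36, had 2.16 ± 0.722 and 2.72 ± 0.809 with PAF1, and 1.62 ± 0.626 and 2.85 ± 0.830 with PHF5A. KDM4A and KDM4B, which act on H3K9 and H3K36, had 2.44 ± 0.767 and 2.64 ± 0.821 with PAF1, and 3.40 ± 0.908 and 3.96 ± 1.01 with PHF5A.

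Over the 9 paralog pairs, levels of the first and second gene differed by more than 2 counting SE in 4 pairs with PAF1 and in 1 with PHF5A. The 4 were RNF20 and RNF40, UBE2A and UBE2B, KMT2C and KMT2D, and KDM5A and KDM5B, of which the last passed in both libraries. A pair that passed with PAF1 alone is not thereby shown to differ between the libraries, which was not tested. The order within the pair was the same in both libraries for 8 of the 9, the exception being MLLT10 and MLLT6. How often other pairs of protein-coding promoters differ by 2 counting SE, or keep their order, was not computed. These counts therefore have no background, and the libraries had a Spearman's rho of 0.823 across all protein-coding symbols. For the remaining pairs an equal level is not shown: KMT2A over KMT2B, for example, had a log2 difference of 0.17 (counting SE 0.68) with PAF1 and 0.59 (counting SE 0.65) with PHF5A.

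Windows near each other may share signal, so each member was set against the median of the windows centred within 1 Mb. Its own and overlapping windows were left out. This neighbourhood held 25 to 180 windows. The members' median ratio to it was 0.784 with PAF1, against 0.901 over protein-coding symbols, and 0.858 with PHF5A, against 0.929. Of the 36 members, 25 lay below their neighbourhood with PAF1, where 58.5% of protein-coding symbols do, and 23 with PHF5A, where 56.7% do. Members at least 1.5 times below their neighbourhood numbered 16 with PAF1 (44.4%, background 28.4%) and 12 with PHF5A (33.3%, background 24.8%). Those at least 1.5 times above it numbered 4 with PAF1 (background 13.2%) and 3 with PHF5A (background 13.0%), shares near the background. KDM5A, UBE2A and WDR5 were above in both libraries, and USP44 with PAF1.

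With PAF1, KMT2C stood lowest against its neighbourhood, at 0.193 times the regional level (regional median 5.52), and it had 0.484 times that level with PHF5A (regional median 4.91), where KMT2B was lowest. All 33 windows of its neighbourhood had more PAF1 signal than KMT2C, the lowest of them being PRKAG2-AS1 at 1.41. The pseudogene FABP5P3, whose window shares 1890 bp with that of KMT2C, had 0.44 ± 0.327 with PAF1 and 0.95 ± 0.479 with PHF5A. AC005631.1, whose window shares 784 bp with it, had 4.76 ± 1.10 and 4.67 ± 1.09. As overlapping windows, both were left out of the neighbourhood. How uniquely reads map to the windows was not computed, so its part in these low values was not tested. RNF20 lay below all 28 of its neighbours in both libraries, at 0.471 and 0.552 times the regional level. KMT2B had 0.377 and 0.389 times the regional level and KMT2A 0.414 and 0.495 times.

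At the other end, USP44 had more PAF1 signal than all 47 of its neighbours, the highest of which was MIR7844 at 7.61, and stood at 2.41 times the regional level, against 1.39 times with PHF5A. KDM5A exceeded all 30 of its neighbours with PHF5A, at 2.02 times the regional level, and had 1.54 times with PAF1. WDR5 showed how the scale matters: its level was near the protein-coding median, but it stood in a region of 1.82 with PAF1 and 2.07 with PHF5A and so had 2.16 and 2.21 times the regional level. NCOA6 was the opposite case, with a regional level of 7.88 with PAF1 and 8.99 with PHF5A on chromosome 20, of which it had 1.28 and 0.895 times.

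**Figure D2:**
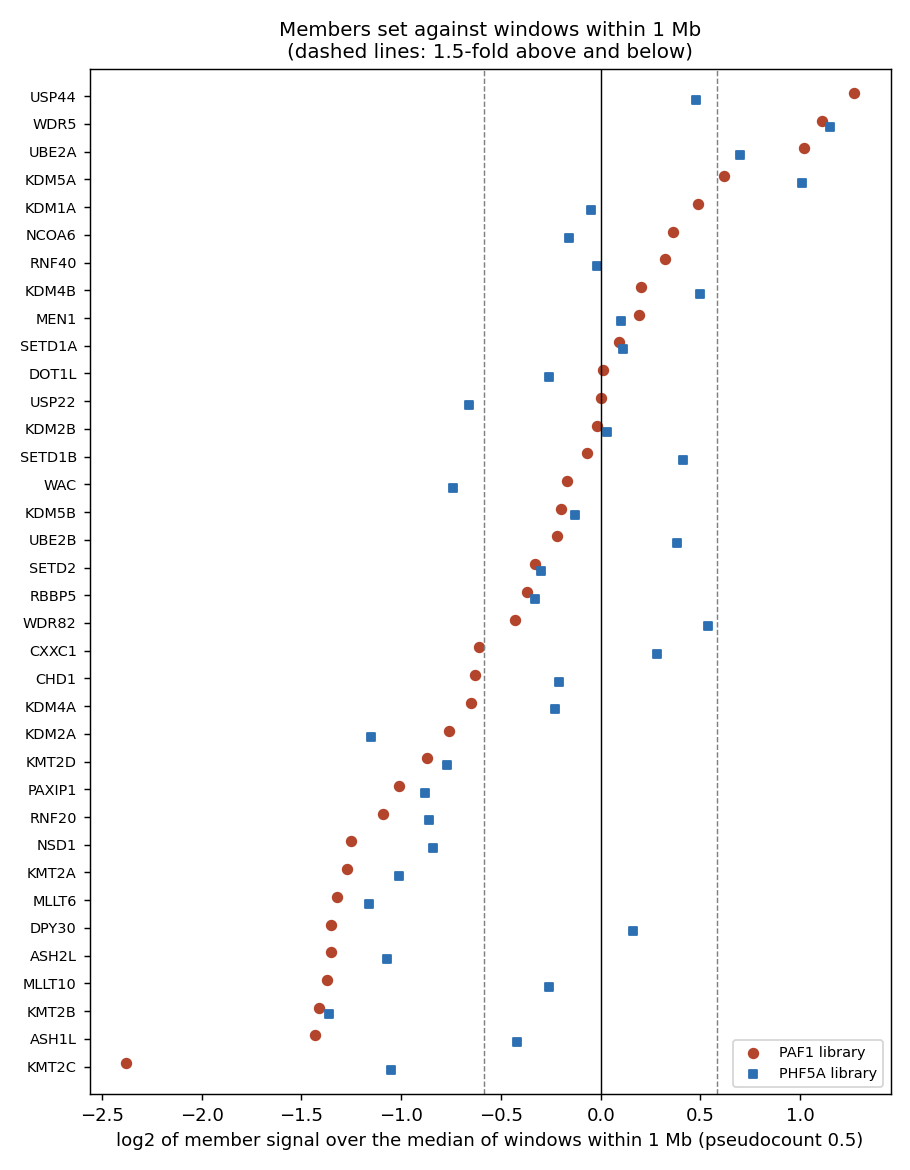
Log2 ratio of each member to the median of windows within 1 Mb in the PAF1 library (circles) and the PHF5A library (squares), ordered by the PAF1 ratio, with dashed lines at 1.5-fold. USP44, WDR5 and UBE2A lie furthest right with PAF1, and KMT2C lies furthest left at 0.193 times its neighbourhood.

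Windows of 20 of the 36 members overlapped 26 windows of other genes, and all 20 had an overlapping window on the other strand. Such windows share bases, so their values are not independent, and overlapping promoters cannot be told apart in full. KDM5A shares its start region with the coiled-coil gene CCDC77, whose start lies 181 bp away and which had 6.44 ± 1.24 with PAF1 and 7.99 ± 1.39 with PHF5A. UBE2B and CDKL3 start 132 bp apart, with CDKL3 at 1.88 ± 0.674 and 3.01 ± 0.854. WAC and the antisense RNA WAC-AS1 start 250 bp apart, and WAC-AS1 had 1.38 ± 0.578 with PAF1 and 0.67 ± 0.403 with PHF5A, below WAC in both libraries. SETD1B likewise lay above the opposite LINC01089, which had 0.5 ± 0.347 and 0.67 ± 0.403.

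The PAF1 and PHF5A profiles of the members were then compared after each library was set relative to its median promoter. The members' median log2 ratio of PAF1 over PHF5A was -0.19, against -0.02 for protein-coding symbols, and 22 of the 36 had less PAF1 than PHF5A, where 52.0% of protein-coding symbols do. PAF1 was at least 1.5 times PHF5A for 3 members, USP22, USP44 and WAC (8.33%, background 9.20%). PHF5A was at least 1.5 times PAF1 for 6 members, DPY30, KMT2C, ASH1L, MLLT10, CXXC1 and WDR82 (16.7%, background 12.6%). Both shares are near the background.

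With a counting error this large, 2 members differed between the libraries by more than 2 counting SE. There was 1 in each direction (2.78% of the 36), shares near the background. The counting SE was itself scaled from the split of signal between these same libraries. USP44 was higher with PAF1, 1.82 times PHF5A (log2 0.87, counting SE 0.36), in a direction that 3.17% of protein-coding symbols pass. DPY30 was lower with PAF1, at 0.432 times PHF5A (log2 -1.21, counting SE 0.51), in a direction that 2.98% pass. USP22 had a ratio as large, 1.94, with a counting SE of 0.59 (log2), and for KMT2C, with a log2 ratio of -1.12 and a counting SE of 0.64, the PAF1 value lies under the floor. Across the 36 members the libraries had a Spearman's rho of 0.738, against 0.823 across 19046 protein-coding symbols. Windows within a library share its depth and regional level, so these correlations are descriptions.

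**Figure D3:**
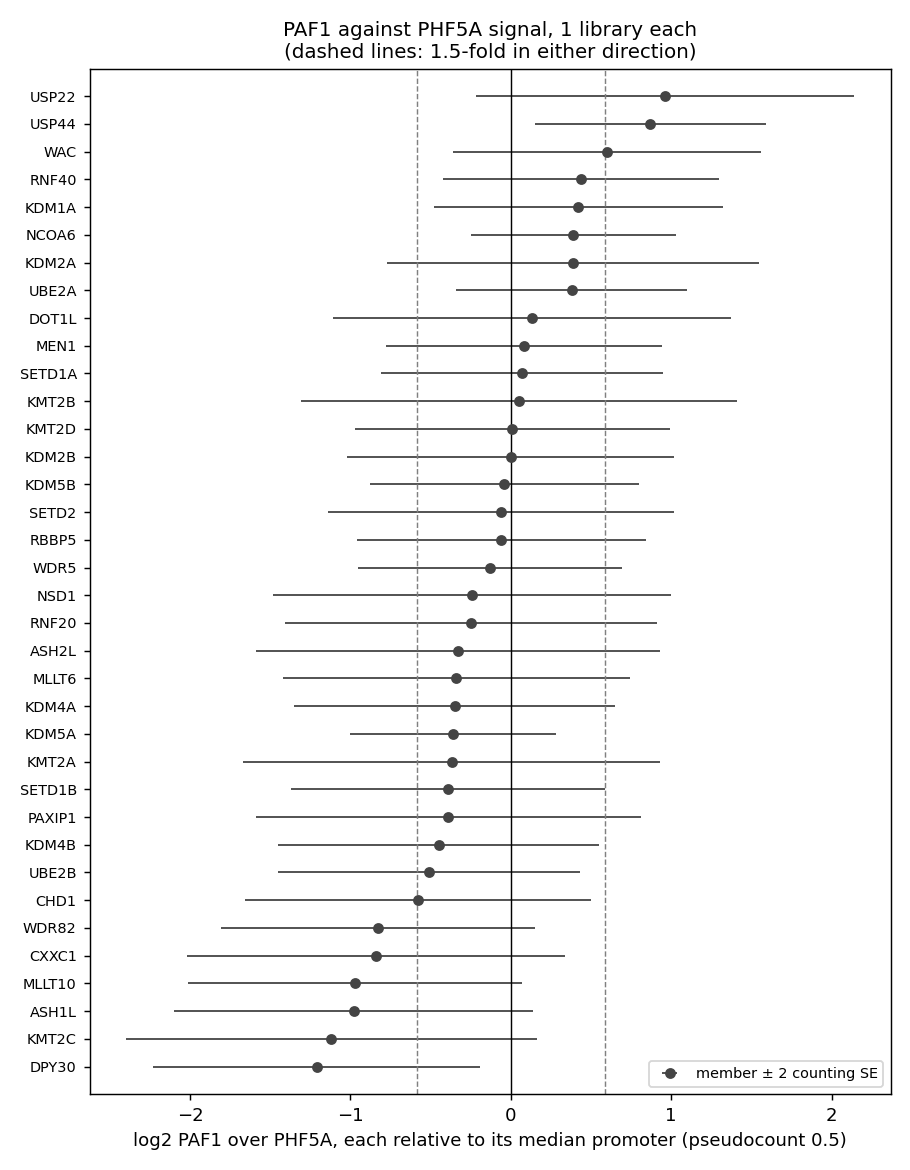
Log2 ratio of PAF1 over PHF5A signal for each member, each library relative to its median promoter, with bars of 2 counting SE and dashed lines at 1.5-fold. The bars of USP44 and DPY30 leave 0 out and those of the other members include it.

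Several of the lowest members had promoters of high GC content, though not all: RNF20, low in both libraries, had 60.8%. Of the 36 members 22 had a RefSeq promoter that lay within the deposited window, and their 250 bases before the start had a median GC content of 70.4%, against 62.8% over 11402 protein-coding symbols. Of these 22 members 15 lay above that protein-coding median. KMT2C, at 92.0%, KMT2B, at 84.4%, and KMT2A, at 78.4%, fell in the decile of protein-coding promoters richest in GC, as did MLLT10 at 82.0%. Over protein-coding symbols the median signal was 2.44 with PAF1 and 2.72 with PHF5A in that decile, against 5.0 and 5.25 in the decile poorest in GC. Spearman's rho between GC content and signal was -0.593 with PAF1 and -0.435 with PHF5A across the 22 members, and -0.325 and -0.320 across protein-coding symbols. Points share a library and its response to base composition, so no p is given.

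Set against protein-coding promoters of the same GC decile, the 22 members had median log2 levels of -0.35 with PAF1 and -0.15 with PHF5A, and 16 and 15 of them lay below their decile. Against the protein-coding median without that step, the same 22 had -0.50 with PAF1 and -0.24 with PHF5A. Relative to its decile (log2), KMT2B had -1.09 with PAF1 and -1.21 with PHF5A, and KDM5A had 1.08 with PAF1 and 1.40 with PHF5A. KMT2A had -0.92 with PAF1 and -0.62 with PHF5A, and KMT2C -1.34 and -0.30, where its PHF5A level against the protein-coding median was -0.75. MLLT10 had -0.37 with PAF1, against -0.87 relative to the protein-coding median, and 0.52 with PHF5A. The part of base composition in these levels was not tested beyond this comparison.

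**Figure D4:**
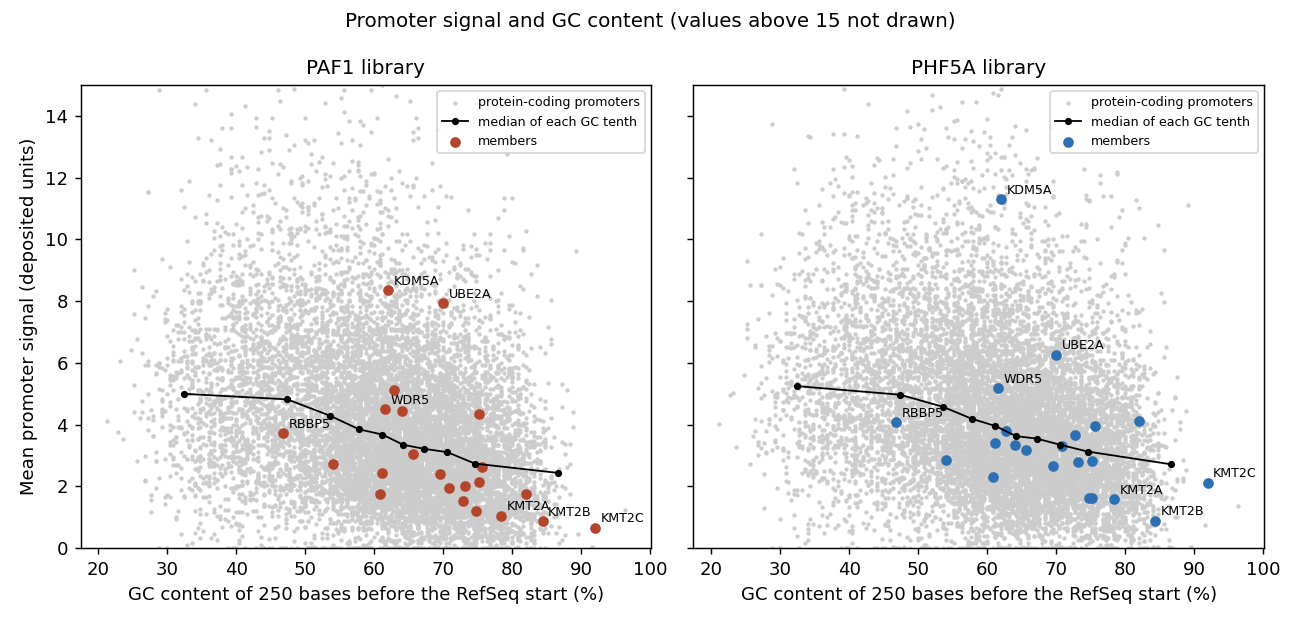
Promoter signal against GC content of the 250 bases before the RefSeq start in the PAF1 library (left) and the PHF5A library (right), for 22 members (coloured) and protein-coding symbols (grey), with the median of each GC decile as a line; values above 15 are not drawn. The line falls with GC content, and KMT2A, KMT2B and KMT2C lie at its low right end.

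Of 7 short motifs searched in these 250 bases, the GC box GGGCGG, read on both strands, was in 18 of the 22 members (81.8%), against 58.2% of protein-coding promoters. The CCAAT box, read on both strands, was in 4 of the 22, CHD1, KDM2B, KDM4A and KDM4B (18.2%), against 34.9%. The TATA sequence TATAAA on the gene's strand was found for RNF40 alone (background 6.68%), the E-box CACGTG for KDM4B and KMT2D (8.01%), the ETS core CCGGAAG on either strand for KDM2B (12.4%) and GCATGCG on either strand for KDM1A (4.78%). AAGATGG on either strand was in none of the 22 (3.36%). A match is a run of letters and not a binding site. The background was not matched for GC content, whose median was 70.4% in the 22 members against 62.8%. The part of base composition in these shares was not tested.

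Of a list of 61 symbols of related chromatin enzymes and cofactors, 58 were matched in the table. With PAF1, 31 of the 58 lay below the protein-coding median (53.4%, background 49.9%), and with PHF5A 33 (56.9%, background 49.5%), shares near the background. At least 1.5 times below their neighbourhood stood 23 of the 58 with PAF1 (39.7%, background 28.4%) and 20 with PHF5A (34.5%, background 24.8%). Of the 36 members, 44.4% did so with PAF1 and 33.3% with PHF5A. The highest of them were SUPT6H, an elongation factor and histone chaperone, at 7.70 ± 1.40 with PAF1 and 11.18 ± 1.69 with PHF5A, and IWS1, its binding partner, at 10.44 ± 1.58 and 7.09 ± 1.31. The lowest were KDM6A, an H3K27 demethylase, listed at 0 in both libraries, and USP27X, a deubiquitinase related to USP22, listed at 0 with PAF1 and at 0.22 ± 0.233 with PHF5A, below the floor.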

How the data were processed

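The deposited table gives the authors' mean signal per promoter window for PAF1 and PHF5A. Its normalization is not given in sources used here. Tools listed in the submitters' processing notes are bedtools, deepTools, Picard, Bowtie2 2.2.3 and Trim Galore, with GRCh38 (hg38) as the build and no settings. Of 3 libraries, 2 had a column, and the input was not analysed here. Multiplied by the number of 150 bp bins in a window, the deposited PAF1 signal gives whole sums for 100% of full windows (tolerance 0.0051 on the signal, which is cut to 2 decimals), and the PHF5A signal does so after division by 1.00609.

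Windows of 1 symbol were averaged. Symbols were called protein-coding by symbol or synonym in a RefSeq table, which matched 34367 of 57997. Levels were log2(signal + 0.5), so every fold is on the (signal + 0.5) scale, and folds understate differences of low values. Counting SE used a dispersion of 4.33, from the split of signal between libraries over 51590 non-overlapping windows. As this holds any true difference between antibodies, it can overstate the counting error on average. It is 1 mean value for all windows, so the error of a given window can be larger. A listed 0 was read as up to 3 counts times the dispersion. Intervals, errors and floors cover counting alone. The dispersion step was tested on simulated data with 1 dispersion for all windows, and checked on windows simulated without a difference. Differences between antibodies and dispersions that vary by window were thus not covered.

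With 1 library per antibody, the antibodies were compared without a test. The members and all lists were chosen with earlier results of these data known. All members were named, with the 2 highest and 2 lowest genes of the wider list by the mean of both libraries and genes whose windows overlap or neighbour those of members. Neighbours other than the lowest or highest were chosen after values were seen. Promoter sequences are RefSeq's (GRCh38.p14). The table held the symbols of 28 members, and ASH2L, UBE2B, SETD1B, PAXIP1, NCOA6, DOT1L, USP44 and DPY30 had no entry. Scripts ran in Python 3.11.15 and used matplotlib 3.10.9, SciPy 1.17.1, pandas 2.3.3 and numpy 2.4.6.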

Additional observations from a re-analysis of the deposited data

How the results depend on the processing

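The main values were recomputed with other pseudocounts, scalings, neighbourhoods and comparison sets, giving 77 alternative values of 35 results. Of these values 72 kept their direction and stayed within a limit set for each kind of result. For medians over all members it was the binomial interval of the median, and for counts 1.5 times. For medians of role groups it was a band around the main value from the counting SE of the group. Members at 2 times the median or more with PAF1 numbered 2 in place of 4 against the higher median of all symbols. Relative to windows within 1 Mb, the median of the H2B ubiquitin writers with PAF1 turned to -0.17 from 0.23, that of the shared core subunits with PHF5A to -0.09 from 0.18 and that of the H3K4 demethylases with PHF5A to -0.05 from 0.29 (log2). The median of the H3K4 methyltransferases with PHF5A moved to -0.89 from -0.51. The cause was not tested. The members' median stayed between -0.61 and -0.27 with PAF1 and between -0.31 and -0.14 with PHF5A. The comparison within GC deciles and the ratio without the member under the floor (-0.13) were chosen after seeing the data. No paired analysis was possible because each antibody has 1 library. Low signal limits the comparison of members: a window near the floor rests on few fragments.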

Other observations

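RNF40 and SETD1A stand within 1 Mb of each other on chromosome 16, as do SETD1B and KDM2B on chromosome 12. RNF40 had 5.11 ± 1.11 with PAF1 and SETD1A 4.22 ± 1.01, while with PHF5A they had 3.80 ± 0.959 and 4.19 ± 1.01. SETD1B had 2.61 ± 0.792 with PAF1 and 3.74 ± 0.952 with PHF5A, and KDM2B 2.72 ± 0.809 and 2.85 ± 0.830. Each difference within a pair lies within the counting error. Across the 36 members the level and the regional level had a Spearman's rho of 0.145 with PAF1 and 0.209 with PHF5A.

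In the wider list of chromatin genes, KDM5C, an H3K4 demethylase on chromosome X related to KDM5A, had 0.44 ± 0.327 with PAF1, under the floor, and 2.96 ± 0.846 with PHF5A, and it was named after its values were seen. SETD7, an H3K4 monomethyltransferase likewise named after its values were seen, had 8.38 ± 1.42 with PAF1 and 9.11 ± 1.48 with PHF5A, at 2.03 and 1.90 times its neighbourhood.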
